A study of Mus musculus with 12 samples.

Results

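The genes described here are 6 genes of mast cells and basophils, Fcer1a, Ms4a2, Fcer1g, Il1rl1, Cpa3 and Hdc, measured in cells of the red cell lineage. They were chosen by symbol, and each symbol was found once among the 32699 genes of every library. RNA was sequenced in 4 groups of 3 libraries of G1E-ER4, a line of mouse red cell progenitors. Cells of the TMG_E2 group received 10 µM Thiamet-G (TMG) and 1 µM β-estradiol (E2), those of the E2 group 1 µM E2 alone and those of the TMG group 10 µM TMG alone, each for 30 h, while Ctrl cells received neither agent and the labels name no vehicle. Every group, Ctrl included, carried a fusion of the red cell regulator GATA-1 with the estrogen receptor, which E2 activates. All cells were at passages 35 to 40 in medium with 50 ng/ml stem cell factor, the ligand of Kit, and 2.5 U/ml erythropoietin. Thiamet-G blocks OGA, the enzyme that takes O-GlcNAc off proteins.

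Mast cells and basophils bind IgE through a receptor built of an α chain (Fcer1a), a β chain (Ms4a2) and γ chains (Fcer1g), and crosslinking of that receptor releases stored mediators. Il1rl1 encodes ST2, the receptor for the alarm cytokine IL-33. Cpa3 encodes carboxypeptidase A3, a protease of mast cell granules, and Hdc encodes histidine decarboxylase, the enzyme that makes histamine. GATA-2 is needed in mast cells and early progenitors, and GATA-1 takes over many of its sites as red cells mature.

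The design limits what a difference between groups can mean. The study used a single line, E2 was given to no cells without the fusion, and other effects of E2 cannot be told apart from those of the fusion. The labels do not say that replicates were separate cultures, and p-values therefore cover only the spread among the libraries, which may be technical. Libraries held 17589380 to 23178721 expected counts each, and 3 counts corresponded to 0.133 to 0.180 CPM (counts scaled to library size) in a library. The labels name the cells as embryonic stem cells. Markers of that cell type summed to at most 0.281 CPM in any library, with 3 of 5 at 0 throughout. Genes that most cells use were also listed near 0, so this sum is given as listed. Erythroid markers summed to 6350 to 6620 CPM in TMG_E2, 6550 to 6860 CPM in E2, 1190 to 1280 CPM in TMG and 1180 to 1200 CPM in Ctrl libraries.

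The start regions of the genes that the results turn on are shown because they carry letters that GATA factors are known to bind. Each window runs from 250 bases before to 50 bases after a RefSeq transcription start on GRCm38.p6, and is written 5′ to 3′ on the strand of the gene. Capitals mark the letters GATA with A or T before them and A or G after them, on either strand, with distances counted to the first capital. The windows are chr19:11623670-11623969 on the minus strand for Ms4a2, chr1:40429320-40429619 on the plus strand for Il1rl1, chr3:20242132-20242431 on the minus strand for Cpa3 and chr2:126618629-126618928 on the minus strand for Hdc.
Ms4a2: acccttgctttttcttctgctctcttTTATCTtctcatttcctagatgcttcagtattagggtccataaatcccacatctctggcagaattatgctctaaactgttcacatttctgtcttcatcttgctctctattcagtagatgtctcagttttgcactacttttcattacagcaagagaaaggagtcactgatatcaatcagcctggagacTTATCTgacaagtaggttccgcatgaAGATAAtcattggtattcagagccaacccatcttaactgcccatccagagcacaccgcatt
Il1rl1: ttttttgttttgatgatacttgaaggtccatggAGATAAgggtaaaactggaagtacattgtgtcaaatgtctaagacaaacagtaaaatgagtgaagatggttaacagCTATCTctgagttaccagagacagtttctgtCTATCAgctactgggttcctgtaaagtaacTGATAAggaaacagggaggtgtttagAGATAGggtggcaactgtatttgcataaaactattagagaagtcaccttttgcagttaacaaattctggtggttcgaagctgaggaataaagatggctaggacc
Cpa3: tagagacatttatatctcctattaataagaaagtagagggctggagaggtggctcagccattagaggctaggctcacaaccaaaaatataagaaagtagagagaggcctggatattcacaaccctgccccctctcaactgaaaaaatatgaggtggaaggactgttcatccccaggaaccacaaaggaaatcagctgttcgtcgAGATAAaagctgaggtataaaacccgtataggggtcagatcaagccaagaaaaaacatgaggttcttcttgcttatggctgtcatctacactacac
Hdc: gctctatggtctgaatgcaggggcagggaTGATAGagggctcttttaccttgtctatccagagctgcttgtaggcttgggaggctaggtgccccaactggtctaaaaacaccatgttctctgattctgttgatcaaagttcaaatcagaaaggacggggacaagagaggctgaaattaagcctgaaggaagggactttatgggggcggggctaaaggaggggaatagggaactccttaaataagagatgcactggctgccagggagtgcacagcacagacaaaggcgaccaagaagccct

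At least 1 match was present in 6 of 7 windows, which belong to 5 of the 6 genes. Across all 32851 RefSeq windows of the same length, 29.8% held at least 1 match. The Ms4a2 window held 3 matches, at 224, 37 and 11 bases before the start, and 1.76% of all windows held at least 3. The Il1rl1 window printed here held 5 matches, at 217, 141, 110, 80 and 54 bases before the start, and 0.0548% of all windows held at least 5. A window at a second Il1rl1 start, chr1:40439379-40439678 on the plus strand, held 1 match, 103 bases before the start. Cpa3 had a match 46 bases and Hdc a match 221 bases before the start. Fcer1a had 1 match, 92 bases before its start, and the Fcer1g window had 0. The E-box letters CANNTG, which read the same on both strands, were present in 72.3% of all windows, and the windows of Fcer1a, Fcer1g, Il1rl1 (both), Cpa3 and Hdc held them while the Ms4a2 window held 0. The windows of Il1rl1 and Hdc lie inside the annotated spans of these genes. The outer 5′ ends of the spans, at 40404864 for Il1rl1 and 126624025 for Hdc, have no window here. A match is a description of the letters only, and binding was not measured in these libraries.

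**Figure D1:**
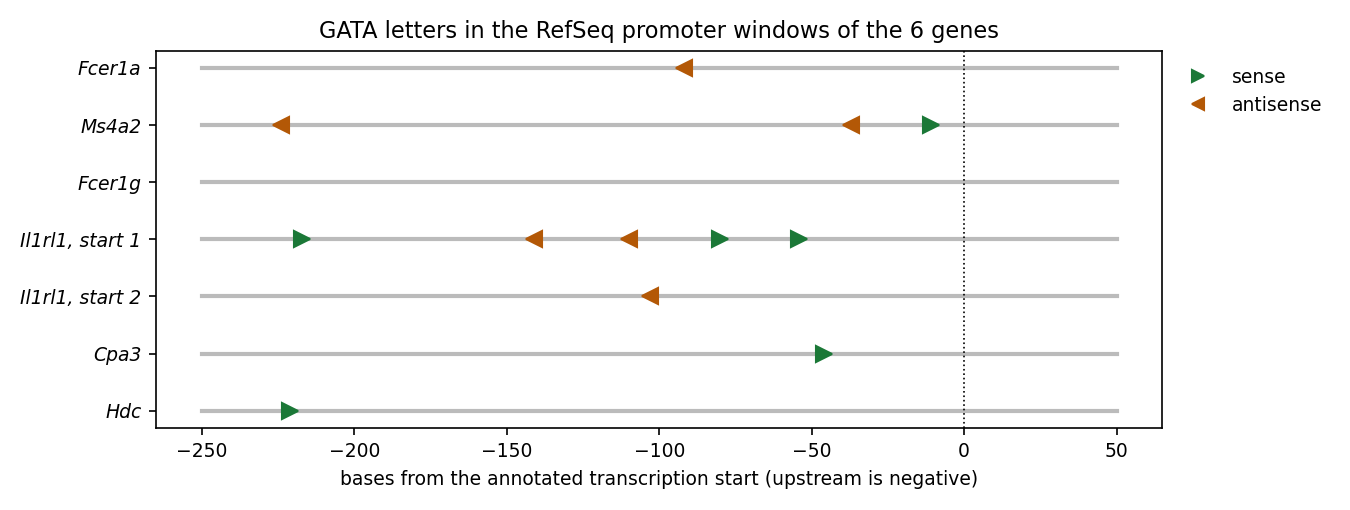
Positions of the GATA letters in the 7 RefSeq start windows of the 6 genes; the horizontal axis is the distance in bases from the transcription start, each row is a window, and marks stand for matches on the sense or antisense strand of the gene. Il1rl1 has 5 matches before the first of the 2 starts shown, Ms4a2 has 3, and Fcer1g has 0.

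Of the 6 genes, 3 passed the expression filter of more than 10 CPM in at least 2 of the 12 libraries: Ms4a2, Il1rl1 and Cpa3. All 3 passed only through libraries without E2. A filter of that kind favours genes that are low with E2, so counts over these genes are given beside the share of all genes called and nothing is read from them alone. Hdc, Fcer1a and Fcer1g stayed below it and are given as counts. Hdc was tested in a fit of all 16108 genes with at least 1 count.

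On the TPM scale, which divides by transcript length and so allows genes to be compared, Il1rl1, Cpa3 and Ms4a2 were the highest of the 6 in Ctrl cells. Levels in the 3 Ctrl libraries were 20.2, 19.8 and 21.2 TPM for Il1rl1, 11.9, 17.6 and 26.4 TPM for Cpa3, and 7.31, 7.81 and 11.8 TPM for Ms4a2. The ranges of Il1rl1 and Cpa3 overlapped, while Cpa3 lay above Ms4a2 in each of the 3 libraries, with means of 18.6 ± 7.33 and 8.99 ± 2.48 TPM (SD, n = 3 each). Hdc was far lower, at 0.54, 0.86 and 0.63 TPM in Ctrl libraries, and Fcer1a and Fcer1g reached at most 0.17 and 0.15 TPM. In TMG cells Il1rl1 was highest at 23.2, 22.8 and 24.9 TPM, above Cpa3 at 6.57, 10.8 and 12.6 TPM, while Ms4a2 at 4.35, 5.47 and 7.04 TPM was again below Cpa3 within each library, though the ranges overlapped. With E2, no library of either group exceeded 0.23 TPM for any of the 6 genes.

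**Figure D2:**
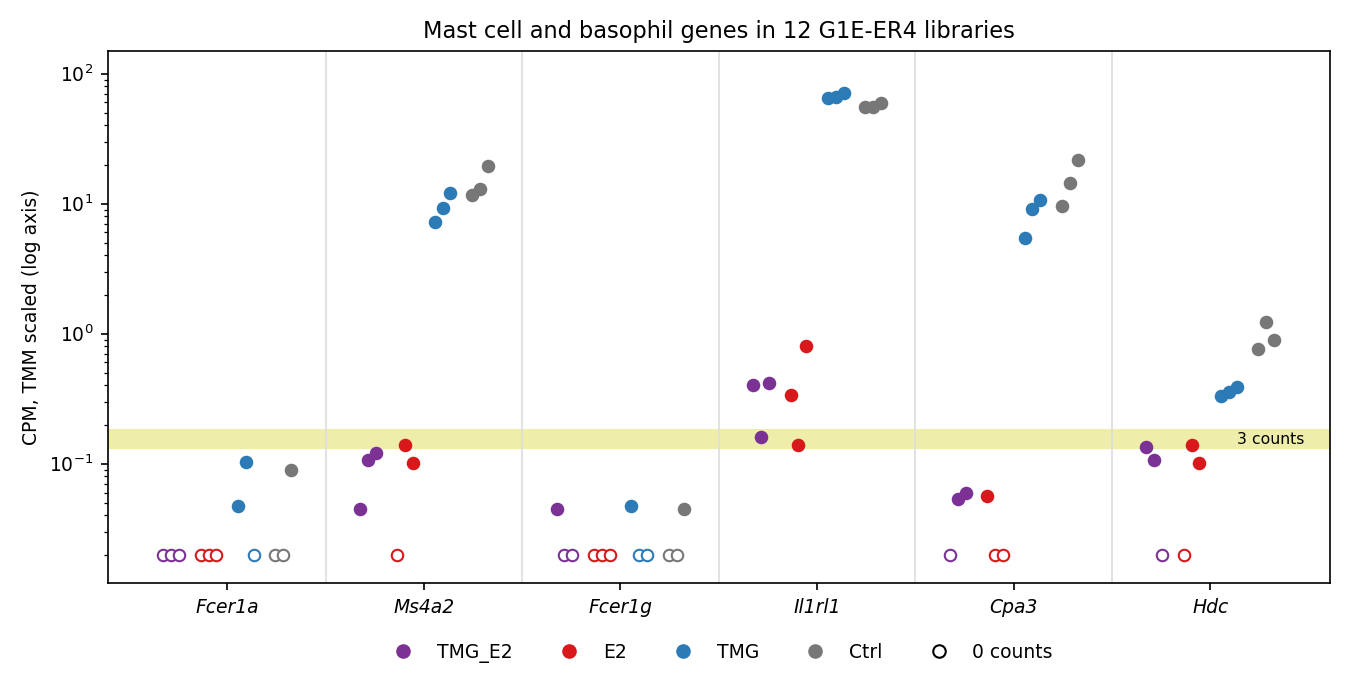
CPM scaled by TMM (log axis) of the 6 genes in each of the 12 libraries, with the groups in the order TMG_E2, E2, TMG and Ctrl; open points at the bottom are libraries with 0 counts, and the band is the range of CPM that 3 counts give in a library. Ms4a2, Il1rl1 and Cpa3 lie at 5.45 to 71.3 CPM in the libraries without E2 and at or below 0.809 CPM in those with it, and Fcer1a and Fcer1g lie below the band in every library.

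The comparisons of E2 with Ctrl and of TMG_E2 with TMG show what E2 changed without and with TMG. The β chain, the IL-33 receptor and carboxypeptidase A3 fell to near 0 in both. Histidine decarboxylase fell too, on few counts, while the α and γ chains of the IgE receptor were hardly detected in any group. In bulk RNA, fewer cells of a type and less RNA per cell cannot be told apart.

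Among the IgE receptor chains, the β chain was the one with substantial RNA. Ms4a2 (chromosome 19, 11615517 to 11623790, GRCm38) had 0, 3 and 2 counts in the E2 libraries, against 247, 273 and 438 in Ctrl. It had 1, 2 and 2 counts in the TMG_E2 libraries, against 152, 182 and 214 in TMG. No library with E2 came near one without it. The levels were 0.0804 ± 0.0724 CPM in E2 and 14.7 ± 4.19 CPM in Ctrl cells, and 0.0905 ± 0.0401 CPM in TMG_E2 and 9.49 ± 2.40 CPM in TMG cells (SD, n = 3 each). The log2 fold change was -7.34 ± 0.42 (SE) for E2 against Ctrl (edgeR adjusted p = 2.15e-11) and -6.67 ± 0.46 for TMG_E2 against TMG (edgeR adjusted p = 2.94e-10). As a ratio of summed counts scaled for depth, Ms4a2 was 174 times higher in Ctrl than in E2 cells (95% interval 74.4 to 538) and 108 times higher in TMG than in TMG_E2 cells (46 to 334); these intervals, like the others of this kind here, cover counting error only. Without E2 replicate 2, which held 3 of the 5 counts, the log2 fold change against Ctrl was -7.95.

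The α and γ chains could not be compared. Fcer1a (chromosome 1, 173221269 to 173227232), the chain that binds IgE, had 0 counts in all TMG_E2 and E2 libraries, 1, 2 and 0 counts in TMG and 0, 0 and 2 in Ctrl libraries. Fcer1g (chromosome 1, 171229572 to 171234349), the signalling chain that other Fc receptors also use, had 1, 0 and 0 counts in TMG_E2, 0 in all E2, 1, 0 and 0 in TMG and 0, 0 and 1 in Ctrl libraries. No group held more than 3 counts of either gene, so no difference was detectable from these counts. As listed, RNA of the IgE receptor was that of its β chain, with Fcer1a and Fcer1g each at or below 2 counts in a library. Genes that most cells use were also listed near 0, with 0 counts of Tmsb4x and 1 count of Cd63 over all libraries. The low counts of Fcer1a and Fcer1g are therefore not read as absence of these chains.

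Il1rl1 (chromosome 1, 40404864 to 40465418) varied less between replicates than Ms4a2, Cpa3 and Hdc in Ctrl cells. It had 6, 3 and 16 counts in the E2 libraries, against 1172, 1166 and 1334 in Ctrl, and 9, 3 and 7 counts in TMG_E2, against 1366, 1290 and 1272 in TMG. The groups with E2 lay far below both groups without it. Levels were 0.429 ± 0.343 CPM in E2 and 56.6 ± 2.36 CPM in Ctrl cells, and 0.328 ± 0.145 CPM in TMG_E2 and 67.3 ± 3.48 CPM in TMG cells (SD, n = 3 each). The log2 fold change was -7.04 ± 0.17 for E2 against Ctrl (edgeR adjusted p = 1.37e-16) and -7.65 ± 0.17 for TMG_E2 against TMG (edgeR adjusted p = 7.04e-17). In ratios, Il1rl1 was 134 times higher in Ctrl than in E2 cells (95% interval 90.4 to 207) and 204 times higher in TMG than in TMG_E2 cells (130 to 339). Of the 25 counts in E2 cells, 16 came from E2 replicate 3, and without that library the log2 fold change against Ctrl was -7.90. The deposited values are per gene, so the RNA of the separate Il1rl1 starts was not told apart.

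Cpa3 (chromosome 3, 20215616 to 20242209) went closest to absence. It had 1, 0 and 0 counts in the E2 libraries, against 203, 305 and 483 in Ctrl, and 0, 1 and 1 counts in TMG_E2, against 115, 179 and 190 in TMG. Every library with E2 was at or below 1 count. Levels were 0.0188 ± 0.0325 CPM in E2 and 15.2 ± 5.97 CPM in Ctrl cells, and 0.0378 ± 0.0329 CPM in TMG_E2 and 8.41 ± 2.67 CPM in TMG cells (SD, n = 3 each). Because the E2 groups held 1 and 2 counts in all, the size of the fall is given as a ratio: Cpa3 was 901 times higher in Ctrl than in E2 cells (95% interval 161 to 35600) and 239 times higher in TMG than in TMG_E2 cells (65.7 to 1980). Both falls were called by edgeR (adjusted p = 4.47e-10 for E2 against Ctrl and 1.4e-08 for TMG_E2 against TMG). Without E2 replicate 1 the remaining E2 libraries had 0 counts, and without TMG_E2 replicate 1 the log2 fold change against TMG was -7.04.

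Hdc (chromosome 2, 126593659 to 126624025) was low in every group. It had 0, 3 and 2 counts in the E2 libraries, against 16, 26 and 20 in Ctrl, and 3, 2 and 0 counts in TMG_E2, against 7, 7 and 7 in TMG. Neither pair of groups overlapped, though the TMG_E2 and TMG libraries stood only 4 counts apart at their closest. The log2 fold change was -3.41 ± 0.58 for E2 against Ctrl (edgeR adjusted p = 3.41e-07) and -1.99 ± 0.69 for TMG_E2 against TMG (edgeR adjusted p = 0.0112), both in the fit without a filter. As ratios, Hdc was 11.3 times higher in Ctrl than in E2 cells (95% interval 4.58 to 36) and 4.14 times higher in TMG than in TMG_E2 cells (1.52 to 14.1). Without E2 replicate 2 the log2 fold change of E2 against Ctrl was -4.03. Without TMG_E2 replicate 3, which had 0 counts, the fall against TMG was -1.51 and was not called (edgeR adjusted p = 0.0685).

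So 3 of the 3 genes kept by the filter fell in both comparisons. Of all 8273 genes kept, 82.7% were called in E2 against Ctrl, 41.2% lower and 41.5% higher, and 82.7% were called in TMG_E2 against TMG, 41.8% lower and 40.9% higher. The groups did not overlap for these 3 genes either, beside 43% of the genes kept that were lower in every E2 than in every Ctrl library and 41.4% that were lower in every TMG_E2 than in every TMG library. In the fit without a filter, where Hdc also fell in both, the shares that fell were 27.2% in E2 against Ctrl and 27.7% in TMG_E2 against TMG, of 16108 genes. Of those, 29.5% were lower in every E2 than in every Ctrl library, and 28.9% were lower in every TMG_E2 than in every TMG library, as Hdc was. With so many genes changed, the call itself says little, and the sizes are described by their place in the order. Ordered from the largest fall among the 8273 genes, Cpa3 was number 1, Ms4a2 number 4 and Il1rl1 number 5 in E2 against Ctrl. Against TMG, the TMG_E2 order put Cpa3 at number 2, Il1rl1 at number 3 and Ms4a2 at number 4. Such orders depend on how genes with few counts are fitted, and the filter favours falls of this kind.

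Whether TMG changed the response to E2 was asked by the interaction term. None of the 3 genes that could be tested passed, beside 0.931% of the genes kept (77 genes, or 171 with a replicate block) and 1.11% of the genes in the fit without a filter: the interaction was 0.67 ± 1.46 for Ms4a2 (edgeR adjusted p = 0.94), -0.61 ± 0.52 for Il1rl1 (0.761) and, without the filter, 1.42 ± 1.08 for Hdc (0.877). The SEs of Ms4a2 and Hdc, over 1 log2 unit each, leave wide room for a difference in either direction. Cpa3 had no usable test, with 2 counts in TMG_E2 and 1 in E2 cells.

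The direct comparison of TMG_E2 with E2 rested on few counts as well. Summed over 3 libraries, Ms4a2 had 5 counts in TMG_E2 and 5 in E2 cells, Il1rl1 19 and 25, Cpa3 2 and 1, and Hdc 5 and 5. The TMG_E2 and E2 libraries overlapped for all 4 of these genes. None of the 3 tested genes was called, beside 12.8% of the genes kept and 7.65% of the genes in the fit without a filter: the log2 fold change was 0.03 ± 1.35 for Ms4a2 (edgeR adjusted p = 0.994), -0.36 ± 0.51 for Il1rl1 (0.702) and 0.03 ± 0.91 for Hdc (1, without the filter). The ratio of E2 to TMG_E2 had 95% counting intervals of 0.225 to 4.26 for Ms4a2, 0.681 to 2.48 for Il1rl1 and 0.225 to 4.26 for Hdc. Differences within these intervals were not detectable at this depth. The intervals cover counting error only, so larger differences could also have been missed.

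TMG and Ctrl cells were compared to see what TMG alone changed. In fits without a replicate block, Ms4a2 and Cpa3 fell in TMG against Ctrl cells, both close to the threshold. Hdc was lower and Il1rl1 higher in every TMG library, and neither passed the test in those fits. Of the 3 genes kept, 2 fell, beside 2.14% of all genes kept, and 0 rose, beside 3.01%. In all, 5.15% of the genes kept were called in this comparison, and 3.52% of the genes in the fit without a filter.

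The β chain gene Ms4a2 had 7.21, 9.29 and 11.99 CPM in TMG libraries, against 11.7, 12.9 and 19.5 CPM in Ctrl. The highest TMG library lay just above the lowest Ctrl library, so the groups overlapped. Its log2 fold change was -0.64 ± 0.18 (edgeR adjusted p = 0.0491), and the ratio of Ctrl to TMG counts was 1.58 (95% interval 1.42 to 1.76, counting error only). The granule protease gene Cpa3 showed the same layout, with 5.45, 9.14 and 10.6 CPM in TMG libraries, against 9.61, 14.4 and 21.5 CPM in Ctrl. Here too the groups overlapped, and Ctrl replicate 3 was the highest library for both genes. Its log2 fold change was -0.87 ± 0.24 (edgeR adjusted p = 0.042), and the ratio of Ctrl to TMG counts was 1.85 (1.66 to 2.07). From the largest fall, Cpa3 stood at number 7 and Ms4a2 at number 11 of the 8273 genes in this comparison. That order uses the log2 fold change alone and takes no account of its SE.

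Both calls held with a block by replicate number, though the labels state no shared day. Cpa3 was then at -0.84 (edgeR adjusted p = 6.18e-05) and Ms4a2 at -0.62 (0.000392). Without the block, each call was lost when any of 4 single libraries was left out. The call of Cpa3 was lost without Ctrl replicate 2 (-0.90, edgeR adjusted p = 0.0868), Ctrl replicate 3 (-0.53, 0.252), TMG replicate 1 (-0.62, 0.187) or TMG replicate 2 (-0.94, 0.0955), and that of Ms4a2 without Ctrl replicate 2 (-0.73, 0.0632), Ctrl replicate 3 (-0.38, 0.271), TMG replicate 1 (-0.47, 0.208) or TMG replicate 2 (-0.64, 0.144).

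Hdc and Il1rl1 did not pass the test but did not overlap between the groups. Hdc had 0.332, 0.357 and 0.392 CPM in TMG libraries, against 0.757, 1.23 and 0.889 CPM in Ctrl. This was a log2 fold change of -1.40 ± 0.45 (edgeR adjusted p = 0.0612, without the filter), and a ratio of Ctrl to TMG counts of 2.67 (95% interval 1.6 to 4.61). Among genes with at least 1 count, 9.27% were lower in every TMG than in every Ctrl library. Il1rl1 had 64.8, 65.8 and 71.3 CPM in TMG libraries, against 55.5, 55.0 and 59.3 CPM in Ctrl, a log2 fold change of 0.25 ± 0.07 (edgeR adjusted p = 0.0657). Of the genes kept, 15.2% were higher in every TMG than in every Ctrl library. The Il1rl1 difference was called under 4 of 7 other settings, with edgeR or DESeq2 adjusted p-values of 0.00365 to 0.0178. That of Hdc was called under 2 of 5. A replicate block is in both tallies, and DESeq2 gave Hdc no adjusted p. With a single library left out and no replicate block, neither gene was called in any of 6 fits. The edgeR adjusted p-values were then 0.106 to 0.237 for Il1rl1 and 0.0692 to 0.288 for Hdc.

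**Figure D3:**
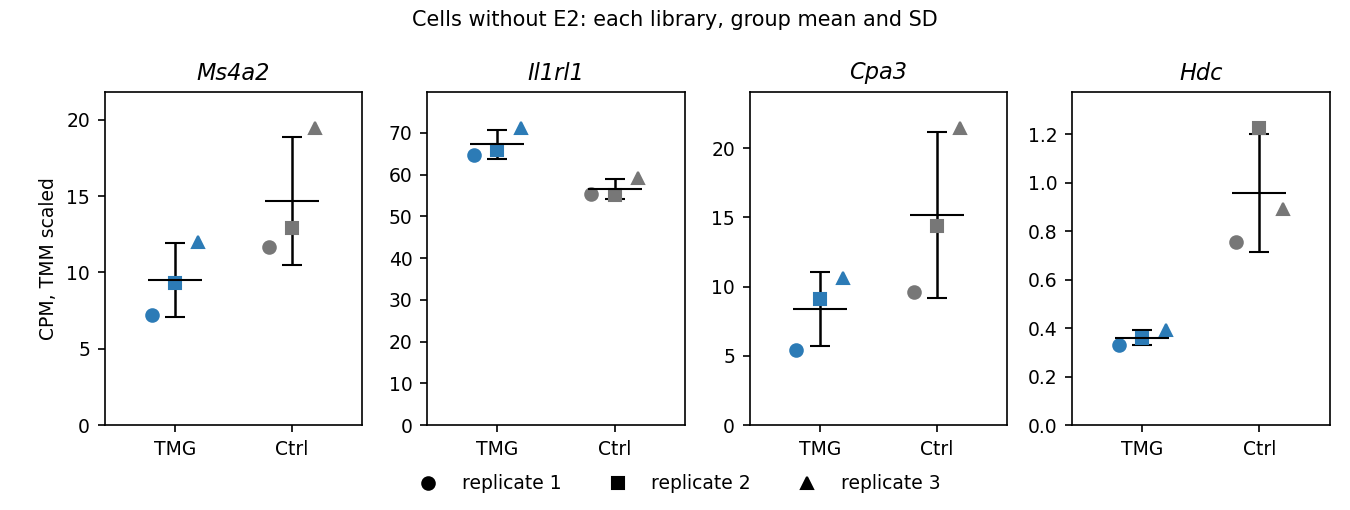
CPM scaled by TMM of Ms4a2, Il1rl1, Cpa3 and Hdc in TMG (left) and Ctrl (right) libraries; points are libraries, with a marker shape per replicate number, and bars are the group mean and SD. Ms4a2 and Cpa3 overlap between the groups, Il1rl1 lies at 64.8 to 71.3 CPM in TMG and 55.0 to 59.3 CPM in Ctrl, and Hdc lies at 0.332 to 0.392 CPM in TMG and 0.757 to 1.23 CPM in Ctrl.

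The genes kept were compared with all others by the root mean square distance between log2 CPM profiles over the 12 libraries, each centred on its own mean. Tespa1, Vim and Cpa3 were nearest to Ms4a2, at 0.487, 0.489 and 0.494. Tespa1, Ms4a2 and Car1 were nearest to Cpa3, at 0.490, 0.494 and 0.533. Ms4a2 and Cpa3 were thus among each other's 3 nearest genes. Il1rl1 was nearest to Plxna3 at 0.384, Car1 at 0.656 and Tespa1 at 0.792, and lay 0.898 from Ms4a2 and 0.810 from Cpa3. Tespa1 averaged 0.103 CPM in TMG_E2, 0.0524 CPM in E2, 9.14 CPM in TMG and 12.9 CPM in Ctrl cells, while Plxna3 averaged 0.137, 0.157, 35.2 and 39.0 CPM in the same groups. Tespa1 also fell with TMG, by 0.50 on the log2 scale (-0.50, edgeR adjusted p = 0.00776), and Vim, the intermediate filament gene, by 0.49 (-0.49, 0.0255). These distances are descriptions, and all profiles share the fall with E2.

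Genes beside Ms4a2, Cpa3 and Hdc on the chromosome did not share the size of their fall with E2. Neighbours were taken within 250 kb, from RefSeq positions and after values had been seen. Next to Ms4a2, 1 of 17 neighbours passed the filter, Mrpl16, a mitochondrial ribosomal protein gene, with a log2 fold change of -0.38 in E2 against Ctrl. The one of the others with the most counts, Ms4a6c, of the same gene family as Ms4a2, held 10 counts in TMG_E2, 11 in E2, 12 in TMG and 14 in Ctrl cells. Next to Cpa3, 2 of 7 passed, at -0.26 for Hps3 and 0.00 for Hltf. Next to Hdc, 3 of 6 passed, and they lay between 0.34 and 0.40. None of the 6 neighbours of Il1rl1 passed the filter, among them other receptors of the interleukin-1 family. Il1rl2 was the highest of them, with 1 count in TMG_E2, 1 in E2, 21 in TMG and 10 in Ctrl cells. Of the 24 neighbours of Fcer1g, 11 passed, with log2 fold changes of -0.43 to 1.61.

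Genes that act with these 6 in mast cells were examined in lists, which were chosen with earlier results of these data known. The granule list was almost empty: of its 13 proteases and proteoglycan genes, 7 had 0 counts in all libraries and 0 passed the filter. The gene of that list with the most counts, Srgn, the core protein of granule proteoglycan, had 27, 20 and 16 counts in TMG_E2, 10, 16 and 10 in E2, 50, 47 and 50 in TMG and 66, 70 and 78 in Ctrl libraries. Srgn was lower in every library with E2 than in every library without it. The shares of genes with a count that were lower throughout, 29.5% in E2 against Ctrl and 28.9% in TMG_E2 against TMG, are the background for that. Of the protease genes, Tpsb2, Mcpt4 and Mcpt8 were among those listed at 0, while Cma1, Mcpt1, Mcpt2, Tpsab1 and Gzmb had counts, at most 3 in a library. Genes that most cells use were also near 0 in these files, with 0 counts of Tmsb4x and 1 count of Cd63 over all libraries, so a 0 is reported as listed and no more.

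Of 9 enzymes of histamine and lipid mediators, 1 passed the filter. Alox5ap, which presents arachidonic acid to the enzyme that starts leukotriene synthesis, fell by 1.39 ± 0.12 on the log2 scale (-1.39, edgeR adjusted p = 7.62e-09) in E2 against Ctrl cells and by 1.35 ± 0.12 (-1.35, 1.11e-08) in TMG_E2 against TMG cells. Both falls were smaller than those of Ms4a2 and Il1rl1, and Alox5ap was not called in TMG against Ctrl, TMG_E2 against E2 or the interaction.

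Receptors split. Of 11 growth factor and cytokine receptor genes, 4 passed the filter, and in both E2 comparisons 2 fell and 2 rose. Of all genes kept, 41.2% fell and 41.5% rose in E2 against Ctrl, and 41.8% and 40.9% in TMG_E2 against TMG. An even split is thus near that of all genes. Kit, the stem cell factor receptor on which mast cells depend, averaged 93.8 ± 3.48 CPM in E2 and 474 ± 10.1 CPM in Ctrl cells, and 101 ± 5.46 CPM in TMG_E2 and 478 ± 9.87 CPM in TMG cells (SD, n = 3 each). Its log2 fold change was -2.34 ± 0.04 for E2 against Ctrl (edgeR adjusted p = 5.09e-18) and -2.24 ± 0.04 for TMG_E2 against TMG (9.05e-18). On the log2 scale these falls were smaller than those of Il1rl1 and Ms4a2 in the same comparisons. Csf2rb and Csf2rb2, receptor chains shared by IL-3, IL-5 and GM-CSF or used by IL-3 alone, rose by 5.66 and 6.26 in E2 against Ctrl, and are near-identical copies between which reads could be split. TMG against Ctrl called 0 of the 4, beside 5.15% of all genes kept. TMG_E2 against E2 called 1, Il4ra, at 0.32 ± 0.09 (edgeR adjusted p = 0.0246), beside 12.8%.

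Of 16 genes of signalling below the IgE receptor, 10 passed the filter. In E2 against Ctrl 7 fell and 2 rose, where 82.7% of all genes kept were called and 41.2% fell, and the median log2 fold change was -1, beside -0.000765 over all genes kept. TMG_E2 against TMG gave the same counts, with a median of -0.921 beside -0.0105. Vav1, an exchange factor recruited after IgE crosslinking, had a log2 fold change of -1.998 ± 0.054 (edgeR adjusted p = 8.29e-16) in E2 against Ctrl cells. Between TMG and Ctrl 1 of the 10 fell, where 2.14% of all genes kept fell. It was Grb2, an adaptor, at -0.15 ± 0.04 (edgeR adjusted p = 0.0196). Between TMG_E2 and E2 4 of the 10 rose, where 12.8% of all genes kept were called and 464 of the 8273 rose. The smallest p was that of Inpp5d, a phosphatase that restrains the IgE signal, at 0.23 ± 0.04 (edgeR adjusted p = 0.00107). Inpp5d was also the 1 gene of the list with an interaction, 0.24 ± 0.05 (edgeR adjusted p = 0.0452), beside 0.931% of all genes kept.

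Signalling genes downstream of the IL-33 receptor moved in both directions. Of 11 genes, 7 passed the filter, and 4 rose and 2 fell in both E2 comparisons, with median log2 fold changes of 0.152 in E2 against Ctrl and 0.213 in TMG_E2 against TMG. A share of 6 in 7 called is near the 82.7% of all genes kept. Below the filter, Sigirr, an inhibitor of this receptor family, had 24 counts in E2 and 138 in Ctrl cells, and 29 in TMG_E2 and 139 in TMG cells. Irak2, a kinase of the pathway, had 433 counts in E2 and 175 in Ctrl cells, and 465 in TMG_E2 and 172 in TMG cells. Both were named after their values were seen and were not tested. Tab1, which links the kinase TAK1 to receptor complexes, had the smallest p, at -0.56 ± 0.04 in E2 against Ctrl (edgeR adjusted p = 2.91e-09). TMG against Ctrl, TMG_E2 against E2 and the interaction called 0 of the 7, beside 5.15%, 12.8% and 0.931% of all genes kept.

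Transcription factors of mast cells went both ways. Of 11, 8 passed the filter, with 4 higher and 2 lower in E2 against Ctrl and 5 higher and 2 lower in TMG_E2 against TMG. Of all genes kept, 41.5% were higher and 41.2% lower in the former, and 40.9% and 41.8% in the latter. The counts by themselves therefore say little about these genes. Gata2 averaged 20.7 CPM in E2 and 524 CPM in Ctrl cells, a log2 fold change of -4.66 ± 0.07 (edgeR adjusted p = 3.09e-19), and 25.6 CPM in TMG_E2 and 487 CPM in TMG cells, a log2 fold change of -4.26 ± 0.07 (8.5e-19). It fell less than Ms4a2 and Il1rl1 in both comparisons, and TMG_E2 cells held more of it than E2 cells, by 0.30 ± 0.08 (edgeR adjusted p = 0.0223). In TMG against Ctrl cells Gata2 was not called, at -0.11 ± 0.05 (edgeR adjusted p = 0.286). Gata1 rose by 1.85 ± 0.04 in E2 against Ctrl (edgeR adjusted p = 8.25e-17), and how much of this RNA came from the introduced fusion was not measured. TMG against Ctrl called 0 of the 8, TMG_E2 against E2 called 2, both higher, and the interaction called 0. The shares of all genes kept that were called were 5.15%, 12.8% and 0.931%.

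**Figure D4:**
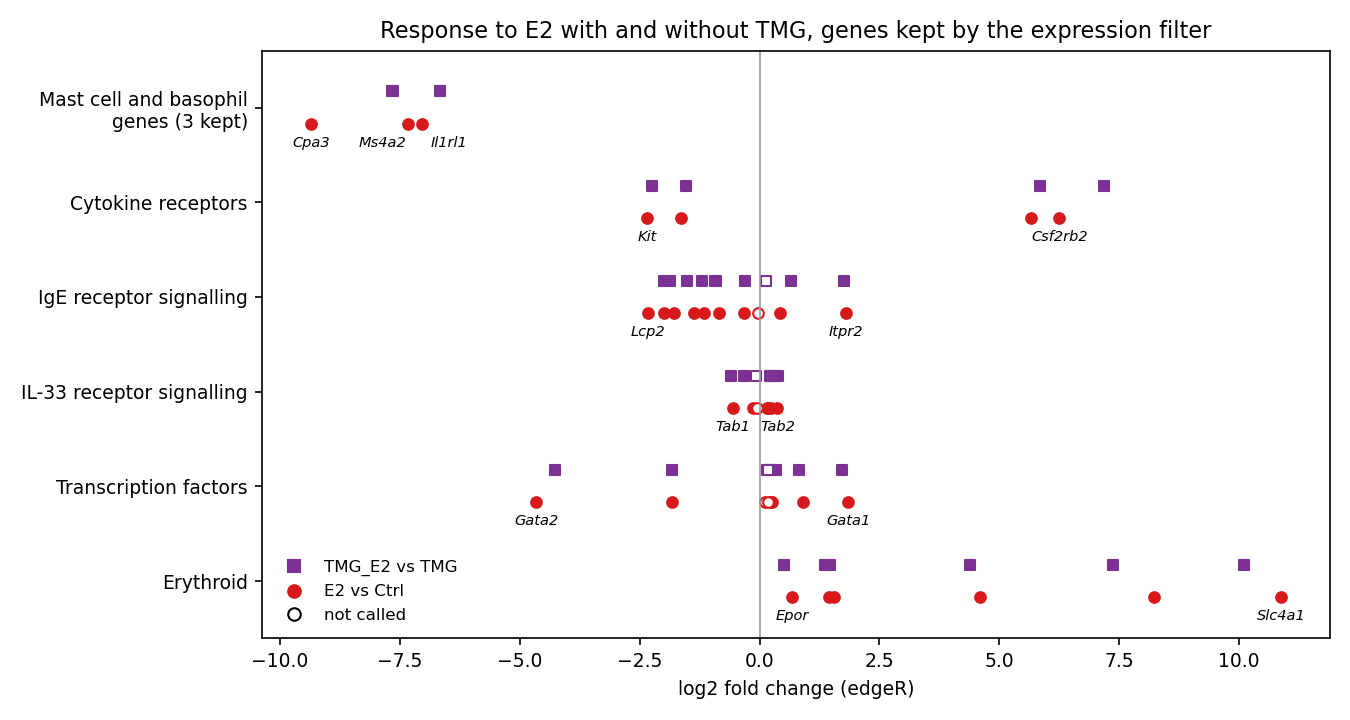
Log2 fold change from edgeR for each kept gene of 6 lists, one list per row; squares are TMG_E2 against TMG, circles are E2 against Ctrl, and open symbols are genes not called. Cpa3, Ms4a2 and Il1rl1 lie below -6 in both comparisons, Gata2 lies at -4.66 and Kit at -2.34 in E2 against Ctrl, and the erythroid genes lie above 0.

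As listed, markers of most other blood cells were low, those of megakaryocytes less so, and their part in these results was not tested. A 0 among them is not read as absence. In the libraries of TMG_E2, E2, TMG and Ctrl cells, the 8 neutrophil markers summed to at most 0.0599, 0.0467, 0 and 0 CPM, and 6 of them had 0 counts in all libraries. The 5 monocyte and macrophage markers summed to 1.2 to 1.39 CPM in TMG_E2, 0.935 to 1.52 CPM in E2, 1.57 to 1.99 CPM in TMG and 1.51 to 2.27 CPM in Ctrl libraries, with 2 at 0 throughout. The 6 lymphoid markers summed to at most 0.214 CPM in TMG_E2, 0.281 CPM in E2, 1.28 CPM in TMG and 0.896 CPM in Ctrl libraries, with 3 at 0 throughout. The 7 megakaryocyte markers summed to 15.2 to 18.3 CPM in TMG_E2, 12.5 to 15.8 CPM in E2, 11.7 to 13.2 CPM in TMG and 8.96 to 12.9 CPM in Ctrl libraries, with 3 at 0 throughout. That sum joins genes that went opposite ways. Gp9 had 442 counts in TMG_E2, 368 in E2, 80 in TMG and 53 in Ctrl cells, and Pf4 had 29, 23, 117 and 79. No marker of these lists passed the filter, and of the 4 sums the lymphoid one was lower in every library with E2 than in every library without it. All 6 erythroid genes analysed here rose in both E2 comparisons. Of all genes kept, 41.5% rose in E2 against Ctrl and 40.9% in TMG_E2 against TMG. Slc4a1, the red cell anion exchanger, led the 6 at 10.88 ± 0.10 in E2 against Ctrl (edgeR adjusted p = 1.18e-21). In TMG against Ctrl cells 2 of the 6 rose, where 3.01% of all genes kept rose. Alas2, the first enzyme of heme synthesis in red cells, led them at 1.01 ± 0.14 (edgeR adjusted p = 0.000488), beside the falls of Ms4a2 and Cpa3. In TMG_E2 against E2 cells 1 of the 6 was higher and 1 lower, where 12.8% of all genes kept were called. The interaction called Alas2, at -0.86 ± 0.15 (edgeR adjusted p = 0.00986), beside 0.931% of all genes kept.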

How the data were processed

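Per the labels' protocols, poly(A) RNA of 12 libraries was made into stranded libraries and sequenced as read pairs. Per the series design text, the authors used FastQC 0.11.2, RSEM 1.2.22 with GRCm38, and edgeR 3.14.0 under R 3.2.2; the submitters' processing notes also name Bowtie2. Expected counts, TPM and FPKM of each gene are deposited, per the file headers. In the deposited expected counts, RSEM shares out reads that fit more than a single gene. The deposited TPM values, which the authors scaled for depth and transcript length, were used for levels between genes, and the deposited FPKM values were not used. No strand setting of RSEM is named there.

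Expected counts were rounded and fitted with edgeR 4.0.16 in R 4.3.3 by a quasi-likelihood test on all 12 libraries, with a mean per group, TMM scaling and Benjamini-Hochberg adjustment over all genes tested, at a threshold of 0.05. As in the design text, genes with CPM over 10 in at least 2 libraries were kept (8273 of 32699). Genes below it were read from a second fit of all 16108 genes with a count, with no test where both groups held 3 counts or fewer. The CPM values in the text are computed here and scaled by TMM. The SE of a log2 fold change comes from its F statistic. Intervals of count ratios are exact binomial, at 95%.

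The genes and lists were chosen with earlier results of these data known. Of each list, the called gene with the smallest p per comparison and genes at 0 may be named, as may Gata1, Gata2, Kit and the 3 nearest profiles of each gene kept; other genes named were chosen after values were seen. Promoters, and gene positions, come from RefSeq on GRCm38.p6. Replicates of a group differed by more than sampling noise in every pair (chi-square over its degrees of freedom, 2.41 to 13.1).

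Pairing of libraries by replicate number was tested by the correlation of deviations from group means. It passed 0.1 for each replicate number in TMG_E2 vs TMG (0.525, 0.149 and 0.412), E2 vs Ctrl (0.108, 0.278 and 0.112) and TMG_E2 vs E2 (0.285, 0.182 and 0.201), so numbers were taken to pair libraries there; the data alone give this pairing, since no shared day is stated in the labels. The alternatives tried were DESeq2 1.42.0, filterByExpr, no filter, RLE factors, library size alone, only the groups compared, a replicate block, and leaving out each library.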

Additional observations from a re-analysis of the deposited data

How the results depend on the processing

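The calls of Cpa3, Ms4a2 and Il1rl1 in E2 vs Ctrl and TMG_E2 vs TMG, and of Hdc in E2 vs Ctrl, held under every alternative that could be run; in a fit of TMG_E2 and TMG alone, Ms4a2 and Cpa3 did not pass the filter and gave no value. Leaving out a library gave Hdc -2.53 to -1.51 in TMG_E2 vs TMG.

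In TMG vs Ctrl, leaving out a library gave -1.11 to -0.53 for Cpa3 and -0.84 to -0.38 for Ms4a2, and Ms4a2 was at -0.64 and not called with filterByExpr (adjusted p = 0.0571 with edgeR). Il1rl1 was called at 0.25 with DESeq2 and without a filter, at 0.25 with only the groups compared and at 0.25 with a replicate block. Hdc was called at -1.40 with only the groups compared and at -1.38 with a replicate block. Neither Il1rl1 nor Hdc was called with a library left out and no block. The correlations of TMG with Ctrl libraries did not all pass 0.1 (0.0876, 0.0295 and 0.188), so this comparison by itself gave no pairing. Still, 5 of 6 libraries correlated best with their own number, as a hint from the data. The pairings taken in the other comparisons also join TMG and Ctrl libraries of the same number. With the block Cpa3 was at -0.84 (edgeR adjusted p = 6.18e-05) and Ms4a2 at -0.62 (0.000392), and both were lower in TMG than in the Ctrl library of the same number in 3 of 3 cases. In the other comparisons the replicate block changed no call of the 6 genes.

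In TMG_E2 vs E2, leaving out a library turned the direction of Il1rl1 (-0.81 to 0.50, higher without E2 replicate 3), Hdc (-0.52 to 0.65) and Ms4a2 (-0.45 to 0.65), and in the interaction that of Il1rl1 (-1.06 to 0.25), none of them called. The cause was not tested.

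Of all genes kept, TMG vs Ctrl called 426, 749 with only the groups compared, 675 with the replicate block and 196 to 257 with a library left out. TMG_E2 vs E2 called 1055, 472 with only the groups compared and 656 to 1160 with a library left out. The interaction called 77, 48 with filterByExpr, 178 without a filter, 171 with the replicate block and 18 to 161 with a library left out. With library size alone the median log2 fold change of all genes was -0.108 in TMG_E2 vs TMG, where TMM gave -0.0105, and -0.0991 in E2 vs Ctrl, where TMM gave -0.000765. It gave 179 higher and 232 lower genes in TMG vs Ctrl, where TMM gave 249 and 177, and 348 higher and 764 lower in TMG_E2 vs E2, where TMM gave 464 and 591. RLE factors gave 566 higher and 531 lower there.

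Low counts limit Fcer1a, Fcer1g and every comparison between TMG_E2 and E2 cells, where the 6 genes held at most 25 counts per group; why Fcer1a and Fcer1g are low was not tested.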

Other observations

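The γ chain of the IgE receptor is shared with other receptors, and of 9 genes that pair with it or resemble it, 0 passed the expression filter. Clec4e, a receptor of damaged cells that signals through the γ chain, had 0 counts in all TMG_E2 and E2 libraries, 5, 6 and 8 in TMG and 16, 11 and 12 in Ctrl libraries. Fcgr3, an activating IgG receptor that also needs the γ chain, had 5, 0 and 1 counts in TMG_E2, 1, 1 and 3 in E2, 21, 11 and 12 in TMG and 25, 17 and 18 in Ctrl libraries. Both were lower in every library with E2 than in every library without it, beside 29.5% of genes with a count that were so in E2 against Ctrl and 28.9% in TMG_E2 against TMG. Gp6, the platelet collagen receptor and another partner of the γ chain, had 8 counts in TMG_E2, 5 in E2, 1 in TMG and 2 in Ctrl cells. Fcgr2b, the inhibitory IgG receptor that works without the γ chain, had 164, 97 and 105 counts in TMG_E2, 89, 75 and 78 in E2, 153, 138 and 121 in TMG and 105, 84 and 102 in Ctrl libraries.

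Of 9 mast cell cytokine genes 1 passed the filter, Il4, which averaged 24.1 CPM in E2 and 4.06 CPM in Ctrl cells (log2 fold change 2.58 ± 0.12, edgeR adjusted p = 1.19e-12) and 28.4 CPM in TMG_E2 and 5.75 CPM in TMG cells (2.30 ± 0.11, edgeR adjusted p = 2.63e-12). Of 5 eosinophil markers 0 passed the filter, and they summed to 0.267 to 0.448 CPM in TMG_E2, 0.506 to 0.91 CPM in E2, 0 to 0.0474 CPM in TMG and 0.0445 to 0.142 CPM in Ctrl libraries. Prg2, the eosinophil granule major basic protein, had 7, 0 and 4 counts in TMG_E2, 3, 7 and 11 in E2, 0 in all TMG and 0, 1 and 0 in Ctrl libraries. In TMG against Ctrl and TMG_E2 against E2 cells Il4 was not called (edgeR adjusted p = 0.0561 and 0.109). Apart from Il4, the genes named in these paragraphs were chosen after their values were seen and were not tested.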
